A study of Mus musculus with 12 samples.

Results

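The estrogen-related receptors and the regulators of mitochondrial biogenesis that work with them were followed through the dorsal root ganglia of mice with and without a D-amino acid oxidase transgene. They are 8 genes of the 54532 in the deposited table, taken by gene name: Esrrg, Esrra, Esrrb, Ppargc1a, Ppargc1b, Nrf1, Gabpa and Tfam. The genes were chosen by their role in this pathway and with the log2 fold changes and adjusted p-values of this comparison known, so the differences between the groups are given below as descriptions of these libraries. Nothing is supported with them.

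Total RNA of ganglia from C57BL/6 mice was sequenced in 6 control and 6 DAAO libraries. Both groups received D-alanine, the substrate from which D-amino acid oxidase (DAAO) produces hydrogen peroxide. Control mice carried Cdh5-Cre, a recombinase driven by the vascular endothelial cadherin promoter and so meant for endothelial cells. DAAO mice are labelled DAAO-TGCdh5; that genotype label does not name Cre, which stands only in their sample names. No age, sex, dose or time stands in the labels. The labels do not say that each library came from its own animal, so all p-values measure the spread between libraries. In whole ganglia, fewer cells of a type and less RNA per cell cannot be told apart.

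Estrogen-related receptors are orphan nuclear receptors that bind DNA without a known natural hormone. They switch on genes of the respiratory chain, the tricarboxylic acid cycle and fatty acid oxidation, and depend on the PGC-1 coactivators, encoded by Ppargc1a and Ppargc1b, to do so. NRF1 and GABP activate the nuclear genes of the respiratory chain, and TFAM, itself under their control, packs mitochondrial DNA and helps to start its transcription. Large sensory neurons, proprioceptors among them, fire at high rates and have a high demand for mitochondrial energy.

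Promoter sequence was available from RefSeq (build GRCm38.p6) for 7 of the 8 genes, in 12 windows of 300 bases that run from 250 before to 50 after an annotated start. Esrrg had 4 such starts, Esrrb and Nrf1 had 2 each, and Esrra, Ppargc1a, Gabpa and Tfam had 1. The counts are per gene, so they do not show which start was used. The stretches before the first start of Esrrg, Esrrb and Ppargc1a, the 3 genes with the lowest DAAO levels relative to control, are shown beside that of Esrra, whose group means were nearly equal. None of them holds an annotated exon. The Esrrg stretch nevertheless lies inside the gene's span, which begins at 187608791 in the deposited table. It stands between an annotated Esrrg exon and the start of that window, unlike the other 3, which lie outside the span of their gene. Capitals mark motif matches.
Esrrg, chr1:187608900-187609005, strand plus: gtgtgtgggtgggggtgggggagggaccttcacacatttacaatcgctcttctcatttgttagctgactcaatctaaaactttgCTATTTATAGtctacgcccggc
Esrrb, chr12:86360867-86361116, strand plus: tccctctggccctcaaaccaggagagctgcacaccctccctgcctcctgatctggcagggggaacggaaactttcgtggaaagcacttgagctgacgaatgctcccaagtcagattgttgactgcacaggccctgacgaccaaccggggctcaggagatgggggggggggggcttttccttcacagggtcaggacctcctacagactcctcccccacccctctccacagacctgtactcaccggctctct
Ppargc1a, chr5:51567727-51567975, strand minus: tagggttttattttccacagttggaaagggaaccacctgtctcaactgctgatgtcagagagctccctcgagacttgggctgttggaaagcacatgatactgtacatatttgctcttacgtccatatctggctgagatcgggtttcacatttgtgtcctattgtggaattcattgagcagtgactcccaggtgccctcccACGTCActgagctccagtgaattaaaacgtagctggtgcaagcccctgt
Esrra, chr19:6921814-6922058, strand minus: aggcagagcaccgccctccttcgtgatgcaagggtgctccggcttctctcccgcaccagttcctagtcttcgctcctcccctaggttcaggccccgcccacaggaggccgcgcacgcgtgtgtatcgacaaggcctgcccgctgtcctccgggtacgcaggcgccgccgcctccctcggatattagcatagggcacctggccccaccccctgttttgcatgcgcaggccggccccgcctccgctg
For Gabpa and Tfam only the bases around the GABP core are shown, since the core lies in an annotated exon in each.
Gabpa, chr16:84835020-84835048, strand plus: gagggtaagtgCTTCCGGgtccctcagct
Tfam, chr10:71238074-71238102, strand minus: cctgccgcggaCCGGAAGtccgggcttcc

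Motifs were searched as exact letters on both strands of each 300-base window, and a match is a description only. The first Esrrg window held a match to the MEF2 element, CTA and TAG with any 4 bases between them, which begins 22 bases before the start. MEF2 factors are activity-dependent regulators in muscle and neurons. This element was found in 3.69% of all 32851 promoter windows. The Ppargc1a window held ACGTCA, the core of the cAMP response element, 50 bases before the start (7.51% of windows), and not the full element TGACGTCA (1.79%). The GABP core CCGGAAG stood 93 bases before the Gabpa start, on the opposite strand, and 47 bases before the Tfam start (8.86% of windows). None of the 12 windows held the estrogen-related receptor element TCAAGGTCA (0.423%), its shorter form AAGGTCA (4.72%, which counts the windows with the longer element too) or the NRF1 element, GCGCA and GCGC with any 1 base between them (4.6%).

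The libraries held between 13227518 and 23884927 counts. Control libraries 2 and 6 had the highest shares of mitochondrially encoded counts, 7.44% and 7.65%, against 3.32% to 5.13% in the other 10. Control 2 also had the highest summed level of the Schwann and satellite glia list (23190 CPM, against 6476 to 10273 in the others) and of the spinal cord list (2409 CPM). In 5 libraries, 2 control and 3 DAAO, Xist exceeded 10 CPM and so did the sum of 4 Y-linked genes, so n counts libraries. The 15 pan-neuronal markers, among them the sensory neuron factors Isl1 and Pou4f1, were all detected in every library. Levels below are CPM, counts scaled to the size of each library with TMM factors, and a gene is said to pass at an adjusted p under 0.05 over the 17002 genes tested with edgeR's quasi-likelihood test. In that fit 128 genes passed, or 0.753%, of which 42 (0.247%) were lower and 86 (0.506%) higher in DAAO. With 1 library left out the number ran from 61 (without DAAO 6) to 322 (without control 2), and it also moved by over 1.5 times without control 1 (80), control 5 (77), DAAO 1 (78), DAAO 2 (65) or DAAO 3 (73). The transgene itself is not analysed here.

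All 8 genes were tested. In that comparison 1 of them passed, Esrrg, which was lower in DAAO, and in 2 of them, Esrrg and Esrrb, every DAAO library lay below every control library, where 0.529% of all genes tested did. None lay wholly above the controls, as 0.918% of all genes did. Since the choice of genes used this comparison, nothing is read from these counts. The log2 fold change, DAAO minus control, was negative in 5 genes and positive in 3, with a median of -0.04, against 0.00 over all genes tested.

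**Figure D1:**
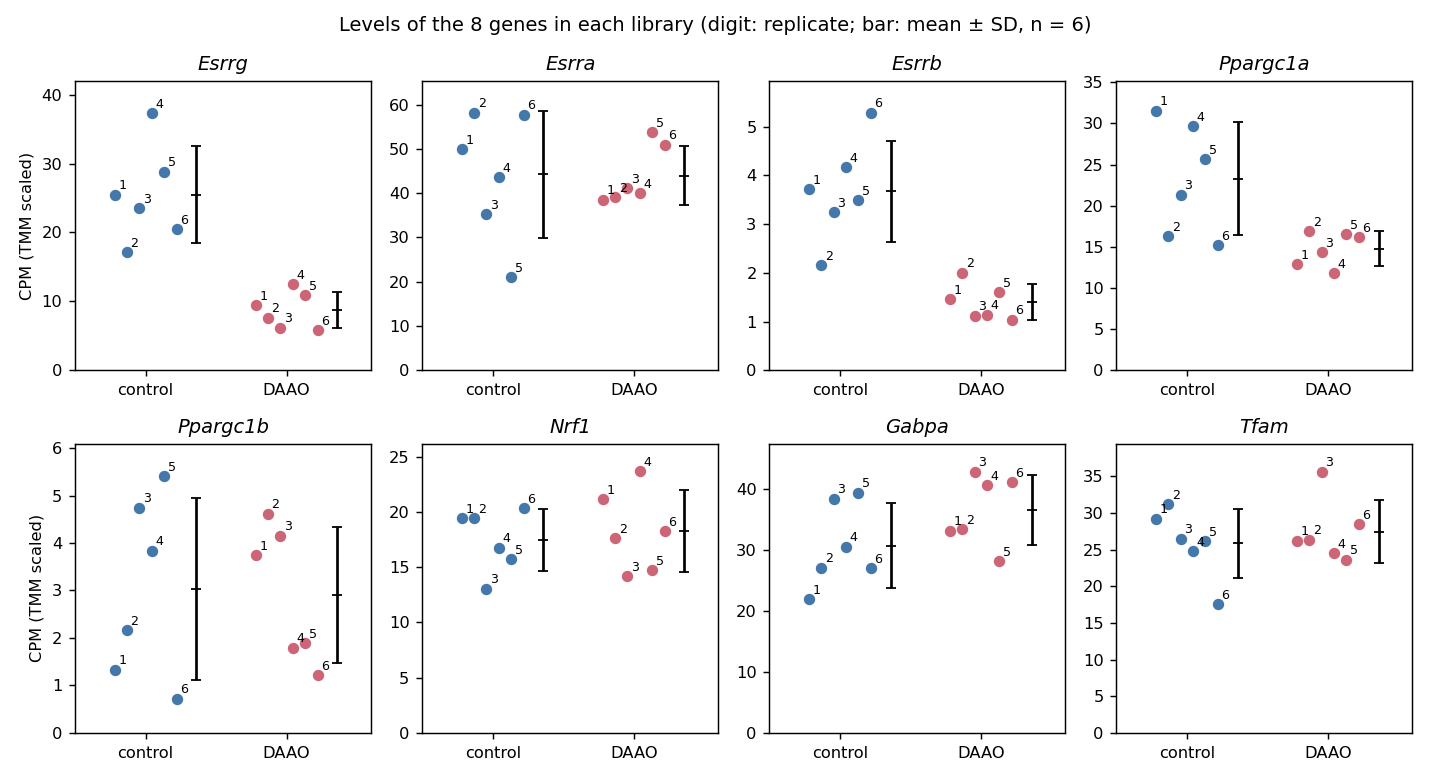
Levels of the 8 genes in CPM (vertical axes, each starting at 0) in 6 control (blue) and 6 DAAO (red) libraries, with the replicate number at each point and the mean ± SD (n = 6) beside each group. The groups are apart in Esrrg and Esrrb, meet in Ppargc1a and overlap widely in the other 5 genes.

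Esrrg encodes ERR gamma, the receptor of this family most tied to tissues with a constant high energy demand (ENSMUSG00000026610; GRCm38, chr1:187608791-188214885, plus strand). Its level in the control libraries had a lowest value of 17.2, a median of 24.5 and a highest value of 37.3 CPM. In the DAAO libraries these were 5.84, 8.49 and 12.5 CPM. The highest DAAO library, DAAO 4, thus stayed below the lowest control, control 2. Means were 25.5 ± 7.05 CPM for controls and 8.74 ± 2.67 for DAAO (SD, n = 6), or 34.3% of the control mean. The log2 fold change was -1.54 ± 0.22 (SE), with an adjusted p of 0.00217 by edgeR's quasi-likelihood test, given as a description, and rank 22 among 17002 genes by p. It lay between -1.67 and -1.40 when any 1 library was left out. Esrrg shares its span with 4 non-coding genes, which together had few counts: Gm36388 had 7 over all libraries and the other 3 had 0.

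Esrrb encodes ERR beta, known from stem cell renewal and the inner ear (ENSMUSG00000021255; chr12:86361117-86521628, plus strand). It was a low transcript, with 17 to 89 counts per library. Control libraries ran from 2.16 through a median of 3.60 to 5.29 CPM, and DAAO libraries from 1.03 through 1.30 to 2.001 CPM. The groups did not overlap, but control 2 and DAAO 2 nearly met. Its log2 fold change of -1.39 ± 0.34 (SE) was close to that of Esrrg and did not pass with edgeR (adjusted p = 0.0816). It passed with DESeq2 (adjusted p = 0.00304) and, with edgeR, without control 2 (0.0335) or without controls 2 and 6 (0.0495). It passed in only these 3 of the 21 alternatives run, with an adjusted p of up to 0.223 (edgeR, no filter on low counts).

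Esrra encodes ERR alpha, the family member most widely expressed and a general activator of respiratory genes (ENSMUSG00000024955; chr19:6910977-6921813, minus strand). Control libraries ranged from 21.1 to 58.2 CPM with a median of 46.7, and DAAO libraries from 38.5 to 53.7 with a median of 40.5. All DAAO values lay inside the control range. The control spread was large, with a coefficient of variation of 32.4% against 15.2% in DAAO, and control 5 was lowest. The log2 fold change was -0.01 ± 0.20 (SE, adjusted p = 0.997 by edgeR), and its sign turned when libraries were scaled by totals alone (0.0415). Esrra overlaps the end of Trmt112 on the other strand by position. Trmt112 had 35.2 and 36.7 CPM in control and DAAO.

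Per kilobase of the gene lengths in the deposited table, Esrra supplied most of the receptor transcripts. Its share of the 3 receptors' summed CPM per kb averaged 77.1% ± 9.59 among controls and 91.2% ± 2.51 among DAAO libraries (SD, n = 6). The share of Esrrg was 20.01% ± 8.84 in controls, from 10.6% in control 2 to 34.3% in control 5, and 7.52% ± 2.40 in DAAO, from 4.44% in DAAO 6 to 11.3% in DAAO 4. On this relative scale the groups touched, since DAAO 4 lay above control 2. Esrrb made up 2.87% ± 0.946 and 1.24% ± 0.401. The sum of the 3 receptors averaged 22.1 ± 5.21 CPM per kb in controls and 18.9 ± 2.62 in DAAO, and the groups overlapped.

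**Figure D2:**
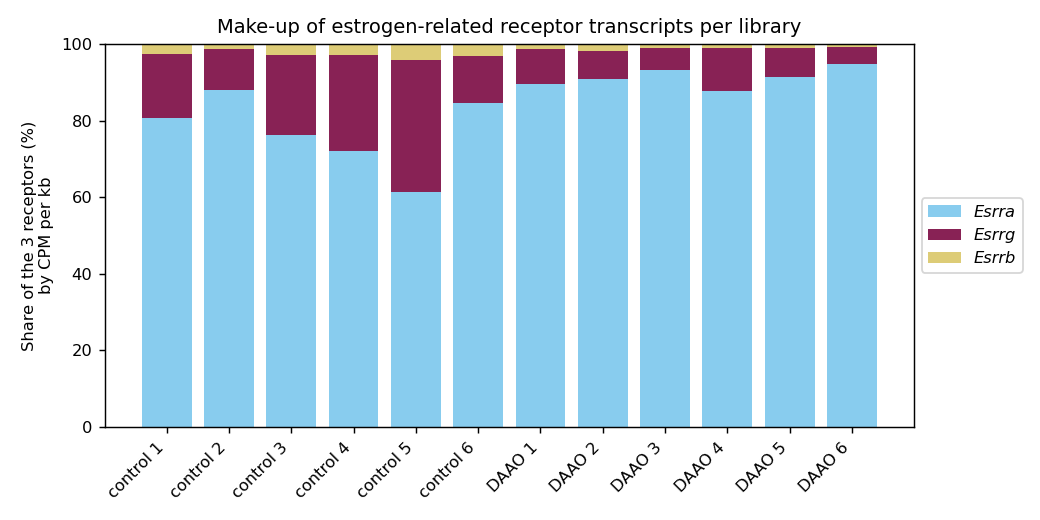
Share of each estrogen-related receptor gene in the family's summed CPM per kb (vertical axis, percent) for each of the 12 libraries (horizontal axis). Esrra is the largest share in every library, and the Esrrg share spans 10.6% to 34.3% in controls and 4.44% to 11.3% in DAAO.

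Ppargc1a encodes PGC-1 alpha, the inducible coactivator of the receptors (ENSMUSG00000029167; chr5:51454250-51567726, minus strand). Control libraries ran from 15.2 through a median of 23.5 to 31.6 CPM, and DAAO libraries from 11.8 through 15.3 to 16.9 CPM. The groups met at their edges: controls 2 and 6 lay among the DAAO libraries, and the other 4 controls stood above all of them. Its log2 fold change was -0.66 ± 0.19 (SE) and did not pass (adjusted p = 0.156 by edgeR; 0.0517 by DESeq2). It passed with edgeR without control 2 (-0.74, adjusted p = 0.0477) and without controls 2 and 6 (-0.87, adjusted p = 0.00731). It passed in only these 2 of the 21 alternatives run, with an adjusted p of up to 0.354 (edgeR, without DAAO 1). Since controls 2 and 6 lay among the DAAO libraries, leaving them out by itself widened the difference. Ppargc1a spans 4 non-coding genes with 8 to 18 counts each over all libraries.

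Ppargc1b encodes PGC-1 beta, the coactivator more often tied to basal mitochondrial content (ENSMUSG00000033871; chr18:61298136-61400431, minus strand). It was a low and scattered transcript, with 9 to 107 counts per library. Control libraries ranged from 0.721 to 5.41 CPM with a median of 2.998, and DAAO libraries from 1.22 to 4.62 with a median of 2.82. The coefficients of variation, 62.9% for controls and 49.4% for DAAO, were the highest of the 8 genes in each group. The log2 fold change was -0.07 ± 0.48 (SE, adjusted p = 0.987 by edgeR), so a difference as large as that of Ppargc1a was not detectable at this spread.

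The 2 nuclear respiratory factors and TFAM had positive log2 fold changes smaller than 0.3. Nrf1 (ENSMUSG00000058440; chr6:30047988-30153458, plus strand), which is not the NFE2-like factor of the same short name, ranged from 13.03 to 20.3 CPM in controls, median 18.1, and from 14.2 to 23.7 in DAAO, median 17.9. The ranges overlapped almost fully, and the log2 fold change was 0.07 ± 0.16 (SE, adjusted p = 0.955 by edgeR). Gabpa (ENSMUSG00000008976; chr16:84834925-84863779, plus strand), the DNA-binding subunit of GABP, ranged from 21.9 to 39.3 CPM in controls, median 28.7, and from 28.1 to 42.8 in DAAO, median 36.9. Of the DAAO libraries 5 of 6 lay above the control median, and the log2 fold change was 0.25 ± 0.16 (SE, adjusted p = 0.648 by edgeR). Gabpa overlaps the respiratory gene Atp5j head to head on the other strand. Atp5j had 167 and 125 CPM (log2 fold change -0.42 ± 0.15 SE, adjusted p = 0.308 by edgeR). Since no source used here says whether counting took the strand into account, reads in the shared part cannot be assigned.

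Tfam (ENSMUSG00000003923; chr10:71225464-71238280, minus strand) ranged from 17.5 to 31.2 CPM in controls, median 26.3, and from 23.6 to 35.6 in DAAO, median 26.3. Its log2 fold change was 0.08 ± 0.15 (SE, adjusted p = 0.927 by edgeR). Control 6 was the lowest and DAAO 3 the highest library.

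**Figure D3:**
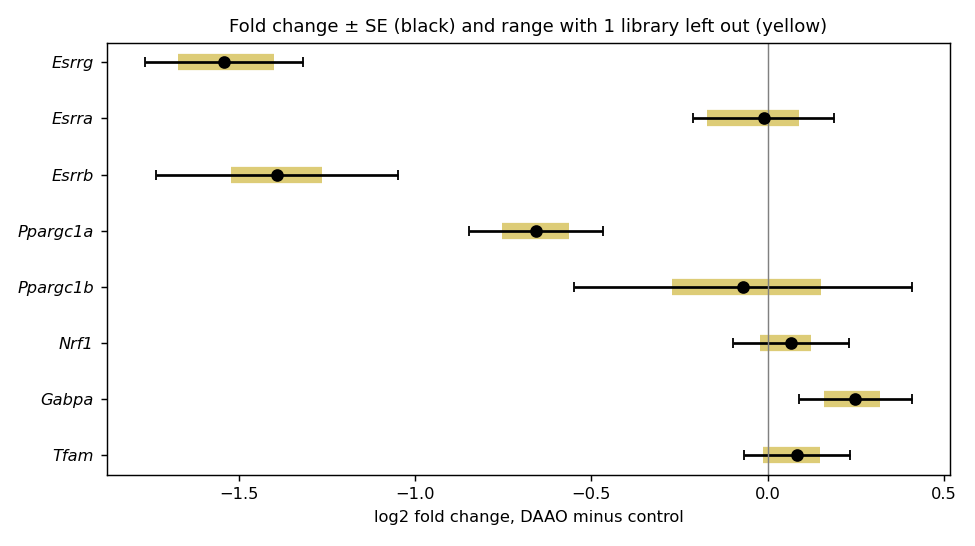
Log2 fold change, DAAO minus control (horizontal axis), of each of the 8 genes with its SE (black) and the range of values when any 1 of the 12 libraries is left out (yellow). Esrrg, Esrrb and Ppargc1a stay below 0 in every such fit, Gabpa stays above 0, and the ranges of Esrra, Ppargc1b, Nrf1 and Tfam cross 0.

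Compared per length in controls, Esrra was the highest of the 8 genes at 17.4 ± 5.64 CPM per kb, and its lowest library (8.30) exceeded the highest of any other gene. Tfam (5.83 ± 1.06), Gabpa (5.39 ± 1.21), Esrrg (4.10 ± 1.14) and Ppargc1a (3.53 ± 1.03) followed, each overlapping its neighbour in range. Nrf1 (1.70 ± 0.272) lay apart below them, and Ppargc1b (0.760 ± 0.478) and Esrrb (0.608 ± 0.171) were lowest, with overlapping ranges. In DAAO the order was Esrra (17.3 ± 2.62), Gabpa (6.42 ± 1.02), Tfam (6.19 ± 0.977), Ppargc1a (2.24 ± 0.318), Nrf1 (1.78 ± 0.357), Esrrg (1.41 ± 0.430), Ppargc1b (0.728 ± 0.360) and Esrrb (0.230 ± 0.0610) CPM per kb (SD, n = 6). The lowest Esrrg control (2.76 CPM per kb) thus stood above the highest Nrf1 control (1.98), whereas in DAAO the ranges of these genes overlapped (0.941 to 2.02 against 1.38 to 2.30).

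Within groups the genes did not vary as one set. With each group's mean removed from log2 CPM, Pearson's r over the 12 libraries was 0.34 between Esrrg and Esrrb and 0.33 between Esrrg and Ppargc1a. Esrra went the other way from Ppargc1b (-0.74) and Gabpa (-0.67), and Tfam from Esrrb (-0.69). These values are descriptions over libraries that also differ in depth and tissue make-up. By the same measure the 5 genes most like Esrrg were Pcsk1, a prohormone convertase of neurons (0.95), Prom1 (0.93), Xk (0.91), Strbp (0.89) and Pik3r3, a regulatory subunit of phosphoinositide 3-kinase (0.89). They were picked as the highest r among all genes compared and no background of r was computed, so these values are descriptions too. None of these 5 passed between the groups, and their log2 fold changes ran from -0.49 for Strbp to -0.29 for Pik3r3.

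Marker lists of cell types that a ganglion or its surroundings could hold were set beside Esrrg. The 9 proprioceptor markers summed to between 581 and 1113 CPM in controls and between 414 and 613 in DAAO, so that control 6 lay within the DAAO range. With edgeR 3 of 9 passed as lower, where 0.247% of all genes tested did. They were Runx3 (-2.10, adjusted p = 0.00455), a factor of proprioceptor identity, Etv1 and Whrn. The summed log2 level of the 9 markers was lower in DAAO by a difference of -0.64 (exact permutation p = 0.00433, two-sided, n = 6 per group). Adjusted over 7 marker lists, this test gave 0.0303, and 0.0606 when libraries were scaled by totals alone. All p-values between the groups for marker lists are descriptions, since the lists were chosen with earlier results of these data known. No proprioceptor marker was at 0 in any library. The 15 pan-neuronal markers summed to 13340 to 20336 CPM in controls and 10449 to 17636 in DAAO (difference of the log2 sums -0.27, exact permutation p = 0.121, adjusted 0.404). Among them 1 of 15, Snap25, passed as lower (-0.61, adjusted p = 0.0498 by edgeR), where 0.247% of all genes tested did. When the fit held the pan-neuronal level too, Esrrg had a log2 fold change of -1.30 (adjusted p = 0.00558 by edgeR).

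Skeletal muscle, where the receptors and PGC-1 alpha are abundant, was present in uneven amounts. The 15 muscle markers summed to 17.0 to 3252 CPM in controls, highest in control 4, and 12.2 to 536 in DAAO (difference of the log2 sums -1.49, exact permutation p = 0.333, adjusted 0.583). None of the 12 tested passed, Tnnc2 was at 0 in every library, and Myl1, Myh1, Mb, Myh2 and Myh7 were at 0 in some. Control 4 was also the highest library for Esrrg. Without it the log2 fold change of Esrrg was -1.40 (adjusted p = 0.00600 by edgeR), and with the muscle level as a term it was -1.56 (adjusted p = 0.00695). Pygm, the muscle glycogen phosphorylase, had the smallest p of the list (-1.39 ± 0.72 SE, adjusted p = 0.554 by edgeR). The adipocyte list stayed at or below 73.0 CPM in controls and 18.3 in DAAO (exact permutation p = 0.552), and the spinal cord list ran from 38.3 to 2409 and from 138 to 763 CPM (exact p = 0.623). Of these, Fabp4 (-1.16, adjusted p = 0.639) and Slc17a8 (0.54, adjusted p = 0.297) came first by p in edgeR's test and did not pass. The 10 glial markers all had negative log2 fold changes and none passed, led by Fabp7 of satellite glia (-0.73 ± 0.18 SE, adjusted p = 0.0807 by edgeR), while their sums of 6476 to 23190 and 6913 to 7967 CPM overlapped (exact p = 0.173). The endothelial list, of the cells the Cdh5 promoter marks, summed to 135 to 186 CPM in controls and 112 to 218 in DAAO (exact permutation p = 0.879), with none of 8 markers passing and Cldn5, a tight junction gene, first by p (0.54 ± 0.20 SE, adjusted p = 0.310 by edgeR). No fit held the proprioceptor level as a term. The part of any of these marker lists in the Esrrg difference was not tested. The fits with the muscle or pan-neuronal level as a term are given as values only.

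Within each group of 6 libraries, where the group difference plays no part, Esrrg was compared with the mean centred log2 level of 3 of these lists. In controls Pearson's r with the proprioceptor list was 0.72 (exact permutation p = 0.103; Spearman's rho 0.60, p = 0.242) and in DAAO it was -0.61 (exact p = 0.182; rho -0.66, p = 0.175). With the pan-neuronal list r was 0.52 in controls (exact p = 0.308; rho 0.26, p = 0.658) and 0.77 in DAAO (exact p = 0.0847; rho 0.71, p = 0.136). With the muscle list r was 0.47 in controls (exact p = 0.339; rho 0.60, p = 0.242) and -0.79 in DAAO (exact p = 0.0750; rho -0.77, p = 0.103). None of the 6 relations passed after adjustment over the 6 (lowest adjusted p = 0.206 for r and 0.290 for rho, exact permutation tests). Without the 2 libraries farthest from the median of the list level, r with the proprioceptor list was 0.30 in controls and 0.36 in DAAO, with the pan-neuronal list 0.68 and 0.84, and with the muscle list -0.20 and -0.51. The relations with the proprioceptor list in DAAO and with the muscle list in controls thus changed sign and rested on those 2 libraries.

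**Figure D4:**
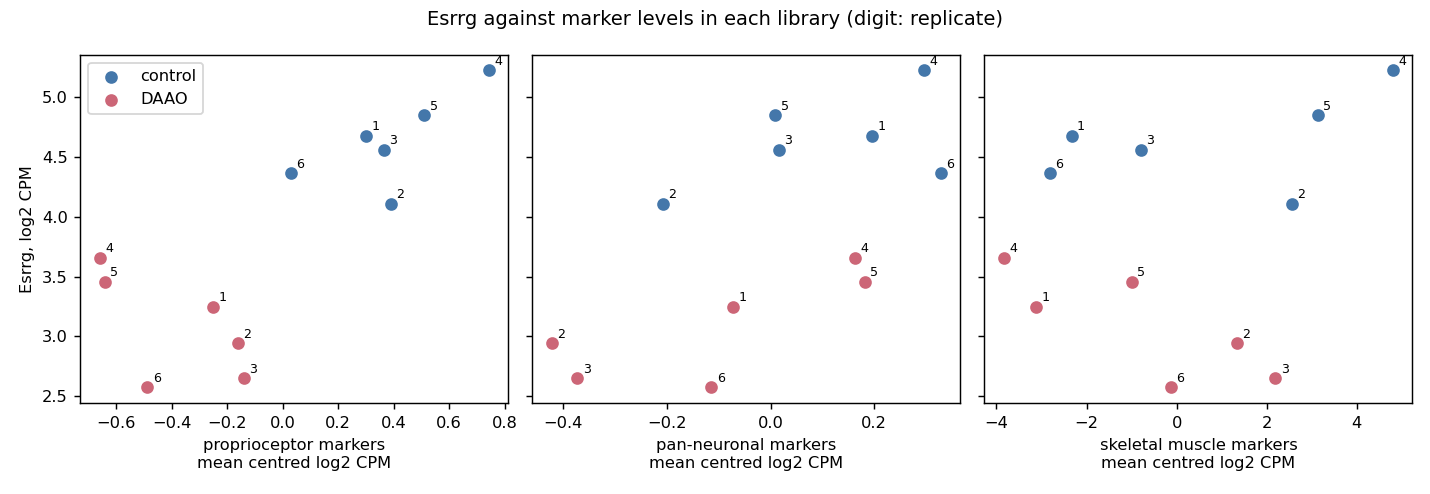
Esrrg in log2 CPM (vertical axis) against the mean centred log2 CPM of 3 marker lists (horizontal axes) in control (blue) and DAAO (red) libraries, with replicate numbers. The control points lie above the DAAO points on the vertical axis whatever the list, since the Esrrg ranges do not overlap, and within DAAO the points slope down for the proprioceptor and muscle lists and up for the pan-neuronal list.

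The partners of the receptors and coactivators were examined as lists. Of 24 cofactors and modifiers tested, among them nuclear receptor corepressors and kinase subunits that activate PGC-1 alpha, none passed, and the median log2 fold change was -0.06. Among 17 other nuclear receptors, several of which use PGC-1 coactivators, none passed and the median was 0.09. Nr2f2, an orphan receptor of venous and glial development, had the smallest p, from 55.8 ± 13.7 to 83.0 ± 11.6 CPM in DAAO (0.57 ± 0.15 SE, adjusted p = 0.116 by edgeR). It passed with DESeq2 (adjusted p = 0.0427), with the replicate block (0.0389) without control 2 (0.0336) and without controls 2 and 6 (0.0394). Thrb, a thyroid hormone receptor named here after its values were seen, had 11.2 ± 2.46 CPM in control and 7.10 ± 1.73 in DAAO (-0.66 ± 0.22 SE, adjusted p = 0.228 by edgeR). It was the only one of the 17 whose DAAO libraries all lay below all controls, where 0.529% of all genes tested did. Of 15 other transcription regulators of mitochondrial genes none passed (median 0.07), and Mef2d led by p (0.37 ± 0.16 SE, adjusted p = 0.445 by edgeR).

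Genes that lie downstream of these factors in the known pathway mostly had small negative log2 fold changes with all libraries in the fit, and none passed with edgeR. The 45 tested energy genes, among which are well-described targets of estrogen-related receptors, had a median log2 fold change of -0.20, against 0.00 for all genes tested, with 42 negative and 3 positive where 49.6% of all genes were negative. An unadjusted p under 0.05 was reached by 13 of 45, where 10.3% of all genes tested reached it. Ckmt1, the mitochondrial creatine kinase of brain and nerve, had the smallest p (214 ± 29.4 and 144 ± 30.4 CPM, SD, n = 6; -0.57 ± 0.14 SE, adjusted p = 0.0879 by edgeR). Ckmt1 passed with edgeR without control 2 (adjusted p = 0.0438), without DAAO 5 (0.0457) and with the muscle level as a term (0.0492). Ogdh, of the tricarboxylic acid cycle, passed without control 2 (-0.39, adjusted p = 0.0290). With DESeq2 5 genes of the list passed as lower, namely Ckmt1, Ldhb, Mdh1, Ogdh and Idh3b, where 362 (2.13%) of the 17002 genes entered passed and 145 (0.853%) were lower. In 2 genes of this list all DAAO libraries lay below all controls, where 0.529% of all genes tested did. These were Ldhb, a lactate dehydrogenase subunit, and Idh3b, a subunit of isocitrate dehydrogenase, both named after their values were seen. The lowest log2 fold changes, -2.10 for Cox6a2 and -1.93 for Ckmt2, belonged to muscle isoforms with means of 6.58 ± 9.05 and 6.51 ± 8.72 CPM in controls, and neither passed. The median of the list was -0.20 with the muscle level as a term and -0.19 with that of the pan-neuronal list.

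The 74 nuclear respiratory chain subunits, some of which are also among the energy genes, had a median of -0.20. Of the 74, 66 were negative and 8 positive, where 49.6% of all genes tested were negative. Their values lay between -0.45 and 0.12, and Atp5j, the neighbour of Gabpa, had the smallest p. The median moved between -0.27 and -0.07 when 1 library was left out, and without controls 2 and 6, the libraries with the highest mitochondrial shares, it turned to 0.06. The 12 tested mitochondrially encoded protein genes, whose transcription TFAM helps to start, had a median of -0.38. Of them 10 were negative and 2 positive, where 49.6% of all genes tested were negative. First by p was mt-Nd2 (4432 ± 1266 and 2925 ± 630 CPM, -0.60 ± 0.19 SE, adjusted p = 0.225 by edgeR). Their control means were uneven, from 8.35 CPM for mt-Nd4l to 20678 for mt-Co1. The 2 positive genes, mt-Nd4l and mt-Co2 (114 CPM), were among the low ones, as were the negative mt-Nd3, mt-Atp6 and mt-Co3. The median of the mitochondrially encoded genes moved between -0.46 and -0.20 when 1 library was left out, and it was -0.02 without controls 2 and 6. Without these 2 control libraries the median of the energy genes was -0.18. The 2 libraries were singled out by their share of mitochondrially encoded counts. That choice by itself favours a higher mitochondrially encoded median without them. Nothing is therefore read from this step for any of the lists or for a difference between them. The machinery that copies and transcribes mitochondrial DNA had a median of 0.01 over 23 genes, with Lrpprc, which stabilises mitochondrial transcripts, first by p (-0.34 ± 0.13 SE, adjusted p = 0.351 by edgeR). Lrpprc passed without control 2 (-0.43, adjusted p = 0.0423). The 23 genes of mitochondrial import, dynamics and turnover had a median of -0.07, with Bnip3, a mitophagy receptor, first by p (-0.32 ± 0.13 SE, adjusted p = 0.387 by edgeR).

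**Figure D5:**
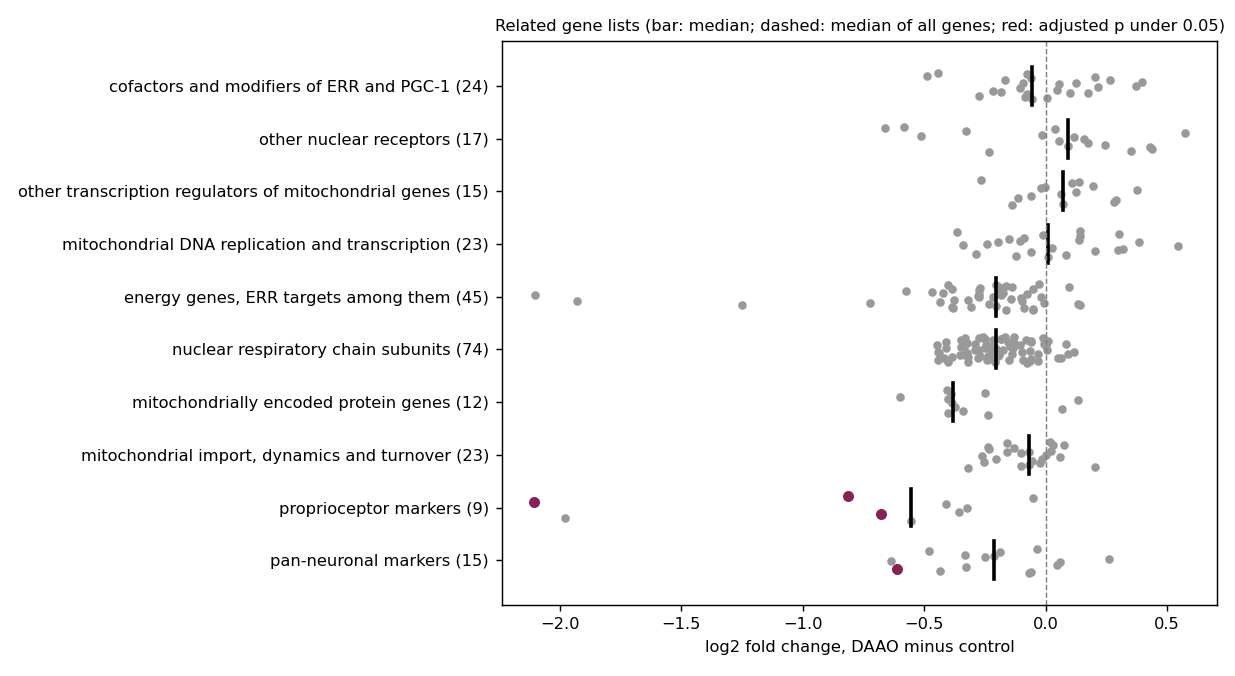
Log2 fold change, DAAO minus control (horizontal axis), of each tested gene of 8 related lists and of the proprioceptor and pan-neuronal markers, with the number tested in brackets, the list median (black bar) and the median of all genes tested (dashed). Red points have an adjusted p under 0.05, and the only ones are 3 proprioceptor markers and 1 pan-neuronal marker.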

How the data were processed

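Ganglion RNA of 6 control and 6 DAAO libraries was read from the whole-number counts per gene that the authors deposited. Per the submitters' processing notes, FastQC, HISAT2 2.0.5, DESeq2 1.20.0 and build GRCm38 (mm10) were used. Which program counted, on which strand and with which annotation is not stated in the sources used here, so overlapping and antisense genes cannot be told apart. Groups come from the sample names.

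Of 54532 genes, 17002 passed filterByExpr (minimum count 10, minimum total 15). They were tested with edgeR 4.0.16 (R 4.3.3; TMM factors, robust quasi-likelihood fit, two-sided, Benjamini-Hochberg adjustment over all genes tested, threshold 0.05), and the procedure was tested on simulated data. Totals of 13227518 to 23884927 counts set the counting precision. No 2 libraries agreed within sampling noise (lowest chi-square per degree of freedom 20.0 over 66 pairs). Marker sums were compared by exact permutation over 924 splits (smallest p 0.00216), and relations within a group over 720 pairings, with log2 CPM at a prior count of 2. Alternatives were other scalings, no filter, DESeq2 1.42.0, limma-voom (limma 3.58.1), the replicate number as a block, the muscle or pan-neuronal level as a term, a prior count of 0.5, and libraries left out.

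The 8 genes and all lists were chosen with earlier results of these data known. Named genes are the 8, of each pathway list those that passed (at most 4) or else the smallest p, of each marker list the smallest p, and the 5 named genes most correlated with Esrrg (mean log2 CPM 1 or more). All other genes named were chosen after their values were seen. 1 gene that the rule names is not reported here. Of 316 list symbols 314 were in the table.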

Additional observations from a re-analysis of the deposited data

How the results depend on the processing

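Esrrg passed in all 21 alternatives run, with log2 fold changes from -1.72 to -1.30 and adjusted p from 3.58e-08 to 0.0102, and from -1.67 to -1.40 with 1 library left out. Gabpa kept its sign and did not pass in any of them.

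With 1 library left out, Esrrb ran from -1.52 to -1.26, Ppargc1a from -0.75 to -0.56, Esrra from -0.17 to 0.0879, Ppargc1b from -0.27 to 0.15, Nrf1 from -0.0206 to 0.12 and Tfam from -0.0140 to 0.15. The number of genes passing then ran from 61 to 322. Genes passing ran from 0 to 2 among the energy genes, and from 0 to 1 both among the other nuclear receptors and in mitochondrial DNA replication and transcription. Each of these highest counts came without control 2, where 322 of the 17362 genes tested passed, so nothing is read from them.

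With DESeq2, 362 of 17002 genes passed (2.13%), and Esrrb did so at -1.40 (adjusted p = 0.00304). So did 5 energy genes, 1 other nuclear receptor (Nr2f2) and 1 mitochondrially encoded gene (mt-Nd2). Without controls 2 and 6, 648 of the 17834 genes tested passed. Among them were Esrrb (-1.39, adjusted p = 0.0495 by edgeR) and Ppargc1a (-0.87, adjusted p = 0.00731), and Esrra turned to 0.23. That fit also had 2 energy genes (Ogdh, Got1) and 2 other nuclear receptors (Nr2f1, Nr2f2). It had 1 gene each of the cofactors (Prkaa2), of mitochondrial DNA replication and transcription (Lrpprc) and of import, dynamics and turnover (Opa1). With so many genes passing over the whole table, nothing is read from these list counts. With the pan-neuronal level in the fit, 85 of 17002 genes passed, 1 of them another nuclear receptor (Rora), Esrra turned to 0.0575 and Tfam to -0.0699. With the muscle level as a term, 116 of 17002 genes passed, 1 of them an energy gene (Ckmt1), Ppargc1b turned to 0.26 and Nrf1 to -0.0192. Esrra was 0.0415 with library totals alone and 0.0748 with limma-voom. With totals alone the summed proprioceptor level differed by -0.59 (adjusted p = 0.0606, exact permutation test) and the summed endothelial level by 0.0232. Without controls 2 and 6 the median of the nuclear respiratory chain list turned to 0.06 and that of the cofactors to 0.04, and that of the mitochondrially encoded genes was -0.02. The cause of these differences was not tested.

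Replicate numbers are shared between the groups, but nothing in the labels ties same-numbered libraries. For that reason the numbers were not taken to pair libraries. Deviations of same-numbered libraries correlated between -0.08 and 0.21, and 3 of 6 controls correlated best with their own number. These values do not settle whether the libraries are paired. With the replicate block 187 of 17002 genes passed, 113 of them among the 128. Esrrg was -1.55, Esrra turned to 0.0417, Ppargc1b to 0.0711, and 1 other nuclear receptor (Nr2f2) passed.

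The counts limit Esrrb (17 to 89 per library) and Ppargc1b (9 to 107) most.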
